A study of Rattus norvegicus with 6 samples.

Results

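The genes described here encode parts of the sperm flagellum, the tail that drives the sperm cell. They were taken by gene symbol as the axonemal dynein genes (Dnah, Dnai, Dnali1 and Dnal1), the cilia and flagella associated proteins (Cfap), the radial spoke heads (Rsph), the tektins (Tekt), the outer dense fibre proteins (Odf), Akap3, Akap4, Fsip, the sperm associated antigens (Spag), Ropn1 and Cabyr. The rule used symbols and no measured value, and it found 81 genes with 79 symbols among the 35291 genes of the table. RNA-Seq had been run on whole testis of 6 Sprague-Dawley rats, 3 diabetic and 3 non-diabetic. The diabetic rats had been fed a high-fat diet and then given 1 intraperitoneal injection of streptozotocin (STZ), a toxin of pancreatic beta cells, at 35 mg/kg, and their testes were taken 8 weeks later. The non-diabetic rats had been injected with citrate buffer, and whether they ate the high-fat diet was not given in the sources used here. If they did not, diet and toxin cannot be told apart. The rats were described as adult without a stated age, and no source said whether a library held 1 testis or pooled tissue. P-values therefore measure the spread between these 6 libraries.

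A flagellum is built around the axoneme, a ring of doublet microtubules around a central pair. Outer and inner dynein arms on the doublets are the motors, the radial spokes and the central apparatus regulate them, and tektins are filaments inside the doublets. In mammalian sperm the axoneme is wrapped in outer dense fibres and, along the principal piece, in a fibrous sheath that anchors signalling and metabolic enzymes. Most of these genes are transcribed in meiotic and post-meiotic germ cells, and the structures are assembled in spermatids. The question put to the data was whether the transcripts of this machinery differed between diabetic and non-diabetic testes.

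Values are FPKM, sequenced fragments scaled to the length of the transcript and the size of the library, as deposited. This unit divides by transcript length, so that the levels of different genes can be compared, and by library size, so that a loss shared by all genes of a testis cannot be seen. The flagellum genes together made up 2.571%, 2.537% and 2.497% of all FPKM with diabetes and 2.574%, 2.519% and 2.491% without it. These shares overlapped between the groups. In whole tissue, fewer cells of a type and less RNA per cell cannot be told apart.

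Of the 81 genes, 77 averaged 0.5 FPKM or more over the 6 rats and were tested. An average of 100 FPKM or more was reached by 18 genes, and the 3 highest were Odf1, Odf2 and Akap4. The 4 genes below the limit were Dnah5, Spag11bl, Spag11a and Rsph4a, and Rsph4a was listed at 0 in every rat. Spag11a and Spag11bl are named for sperm antigens but belong to a defensin-like family of the epididymis, and neither exceeded 0.286 FPKM in any rat.

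**Figure D1:**
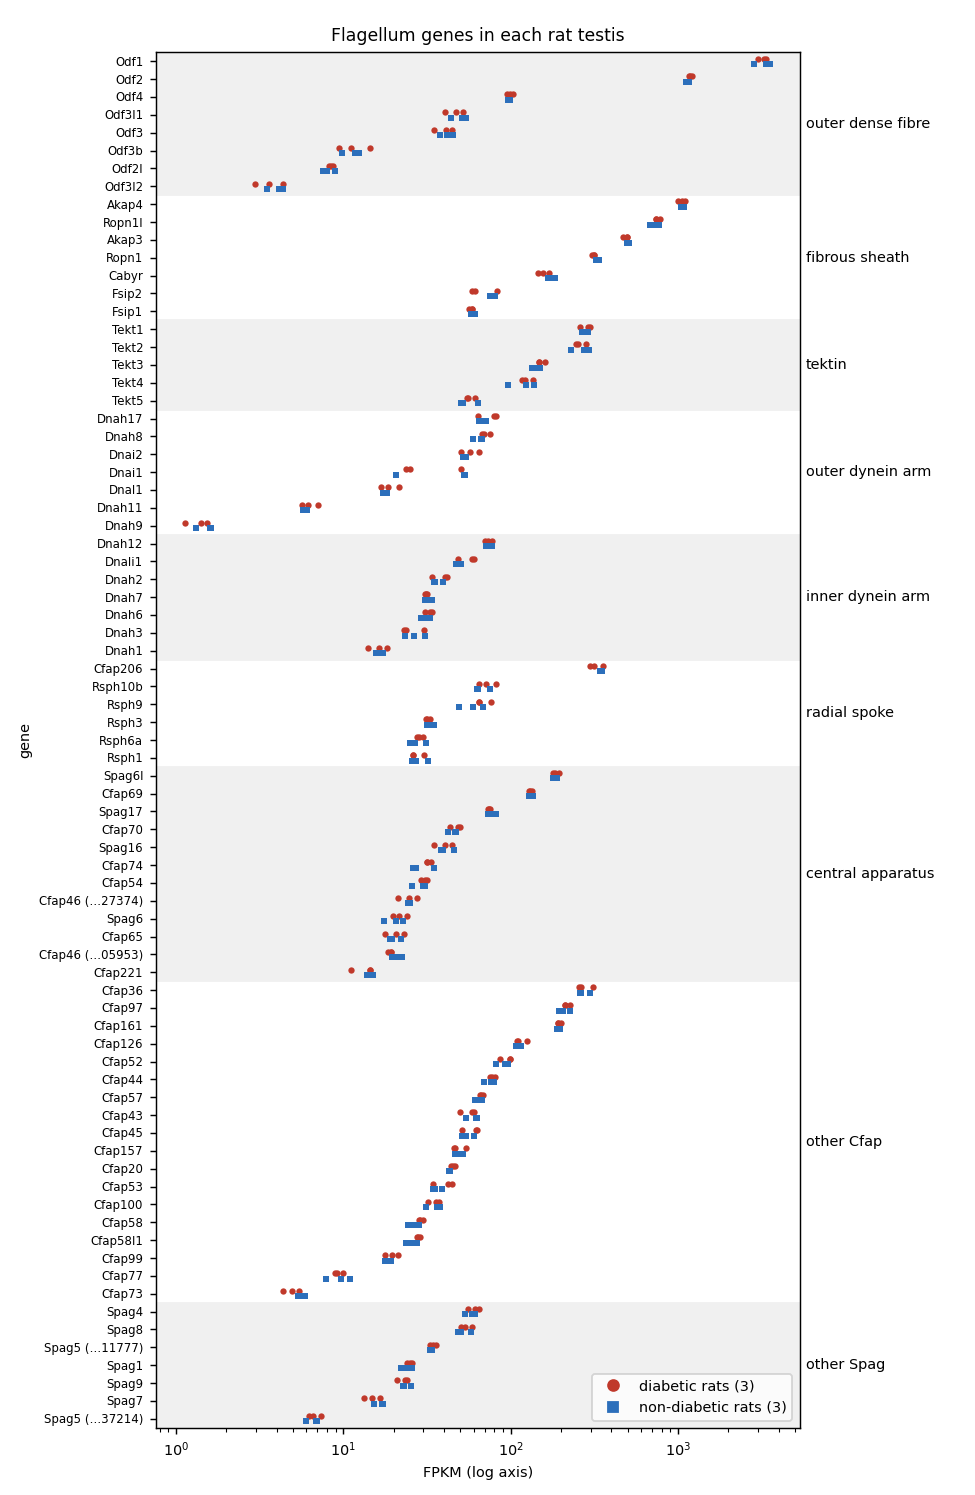
FPKM (log axis) of the 77 flagellum genes tested, 1 point per rat, red circles for the 3 diabetic and blue squares for the 3 non-diabetic rats, grouped by structure. Levels ran from Dnah9 at a mean of 1.43 FPKM to Odf1 at 3228 FPKM, and the points of the groups lay on each other for nearly every gene, with Dnai1 the most widely spread.

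The accessory structures of the tail held the most abundant transcripts. Odf1, the main small protein of the outer dense fibres, was at 3361, 3271 and 3007 FPKM with diabetes and at 3329, 3553 and 2847 FPKM without it. Odf2, a scaffold of the same fibres, was at 1159, 1177 and 1219 FPKM with diabetes and at 1117, 1112 and 1165 FPKM without it. Odf1 was 2.44 to 3.19 times as abundant as Odf2 in each rat. The other genes with an Odf symbol were far lower, from 3.82 FPKM for Odf3l2 to 98.3 FPKM for Odf4 as means over the 6 rats.

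In the fibrous sheath, Akap4, the anchoring protein that forms most of the sheath, was at 993, 1060.3 and 1095 FPKM with diabetes and at 1035, 1047 and 1086 FPKM without it. Its partner Akap3 was at 492, 497 and 466 FPKM with diabetes and at 494, 513 and 509 FPKM without it, so that Akap4 was 2.02 to 2.35 times as high in each rat. The ropporins bind these anchoring proteins through a domain like that of the regulatory subunit of protein kinase A. Ropn1l had a mean of 739.8 FPKM and Ropn1 one of 319 FPKM, a ratio of 2.11 to 2.47 in each rat. Cabyr, a calcium-binding protein of the sheath, followed at 165 FPKM, and the interacting proteins Fsip2 and Fsip1 at 72.7 and 58.7 FPKM.

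Outside the outer dense fibres and the fibrous sheath, Cfap206, which is needed for a radial spoke, was the most abundant at 334 FPKM. It was ahead of Tekt1 at 281 FPKM and Cfap36, which was not assigned to a structure, at 275 FPKM. The tektins ranged from 56.2 FPKM (Tekt5) to the value of Tekt1. In the central apparatus the highest gene was Spag6l at 186 FPKM, 7.82 to 10.8 times the level of its paralog Spag6 in each rat. The inner arm was led by the heavy chain Dnah12 at 74.4 FPKM, and the outer arm by the heavy chains Dnah17 and Dnah8 at 71.0 and 67.6 FPKM.

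Dynein and spoke genes with a sperm form and a form of airway cilia differed widely in level. Dnah8 and Dnah17 are the outer arm heavy chains of sperm, whereas Dnah5, Dnah9 and Dnah11 serve motile cilia such as those of the airway. Dnah8 was at 74.9, 69.6 and 67.0 FPKM with diabetes and at 66.8, 59.9 and 67.5 FPKM without it, whereas Dnah5 was at 0.417, 0.414 and 0.216 FPKM with diabetes and at 0.359, 0.408 and 0.286 FPKM without it. In single rats Dnah8 was 147 to 310 times as high as Dnah5. Dnah17 was at 79.0, 81.4 and 63.5 FPKM with diabetes and 70.9, 64.7 and 66.2 FPKM without it. It was 41.5 to 69.4 times as high as Dnah9 and 10.3 to 14.0 times as high as Dnah11 in single rats. Of the paralogous spoke heads, Rsph6a, the form of sperm, had a mean of 28.1 FPKM, whereas Rsph4a, the form of cilia, was listed at 0 in all 6 rats. Both orders held in diabetic and in non-diabetic rats alike. These paralogs, like Ropn1l, Spag6 and other genes given with a mean alone, were described after their values had been seen.

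Promoter sequences of RefSeq (rat assembly GRCr8) were searched for motifs of factors that act in ciliated and germ cells. The X-box core GTTGCC (reverse GGCAAC) is the core of the site of the RFX factors, which drive genes of cilia, and the CRE TGACGTCA, which reads the same on either strand, is the site of CREM, a factor of spermatids. Each promoter spanned 250 bases before and 50 after a gene's start, both strands were read, and neither motif contains the other. Of the 79 symbols, 78 matched a RefSeq gene, 4 of them by a synonym, and 63 had at least 1 promoter. The X-box core was found in 28 of their 94 promoters (29.8%), against 12.2% of all 33469 promoters. By gene, 23 of 63 had it, against 13.1% of 27457 genes. The CRE was found in 3 of the 94 promoters (3.19%), against 1.83% of all. A match of this kind is a description of letters, and no factor binding was measured. Below are 80-base stretches for a gene of the fibrous sheath, a tektin, a central apparatus gene and Spag4, chosen because they carry the motif in different structures, read 5′ to 3′ on the gene's strand with the X-box core in capitals.
Ropn1, chr11:79632345-79632424 on the minus strand, match at position -42 from the start: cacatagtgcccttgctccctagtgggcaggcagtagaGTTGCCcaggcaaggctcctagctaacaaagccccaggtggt
Tekt1, chr10:57479122-57479201 on the minus strand, match at position -39: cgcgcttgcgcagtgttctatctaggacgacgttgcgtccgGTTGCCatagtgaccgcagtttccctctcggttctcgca
Spag6l, chr11:97677739-97677818 on the plus strand, match at position -64: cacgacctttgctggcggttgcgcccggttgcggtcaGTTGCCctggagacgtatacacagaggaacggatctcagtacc
Spag4, chr3:165041083-165041162 on the plus strand, reverse match at position -59: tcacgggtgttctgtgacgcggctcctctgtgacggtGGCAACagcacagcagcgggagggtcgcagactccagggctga

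The comparison of the groups showed no flagellum gene past any threshold. Values were compared as log2(FPKM + 0.1) with limma across the 20338 genes that averaged 0.5 FPKM or more, and differences are log2 fold changes of diabetic against non-diabetic rats on that scale. Of the 77 flagellum genes, 0 changed by 1 or more on the log2 scale with an unadjusted p-value under 0.05, against 253 of all genes (1.24%). An unadjusted p-value below 0.05 alone was reached by 0 of the 77 toward lower values, against 4.99% of all genes, and by 0 toward higher values, against 2.47%. After Benjamini-Hochberg adjustment over all genes in limma, 0 of the 77 were below 0.05, against 7 of all genes (0.0344%). The lowest unadjusted p-value of a flagellum gene was 0.0783 (Dnali1, adjusted p = 0.729). Most of these genes are abundant, and of the 6753 genes that averaged 10 FPKM or more, 5.66% had an unadjusted p-value below 0.05 in either direction, against 0 of the 70 flagellum genes at that level.

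The intervals show how large a difference the data leave room for. The 95% interval of the log2 fold change lay within -0.5 and 0.5 for 72 of the 77 genes, against 50.9% of all genes tested. At an average of 10 FPKM or more it did so for 67 of 70 flagellum genes and for 90.7% of all 6753 genes, so that the narrow intervals were shared with other genes of like level. The 5 genes with wider intervals were Dnah9, Odf3l2, Dnai1, Rsph9 and Fsip2. By sign alone 45 genes were higher and 32 lower in diabetic rats, or 54 and 23 after median-ratio scaling of the libraries, and 56 of the 77 differed by less than 0.1 on the log2 scale. The median log2 fold change was 0.024, against -0.021 over all genes tested and 0.00083 over genes averaging 10 FPKM or more. The extremes of the flagellum genes were -0.31 (Dnai1) and 0.22 (Rsph9). Such small values moved either way when a rat was left out, and 47 of the 77 genes kept their sign in all 6 such fits.

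**Figure D2:**
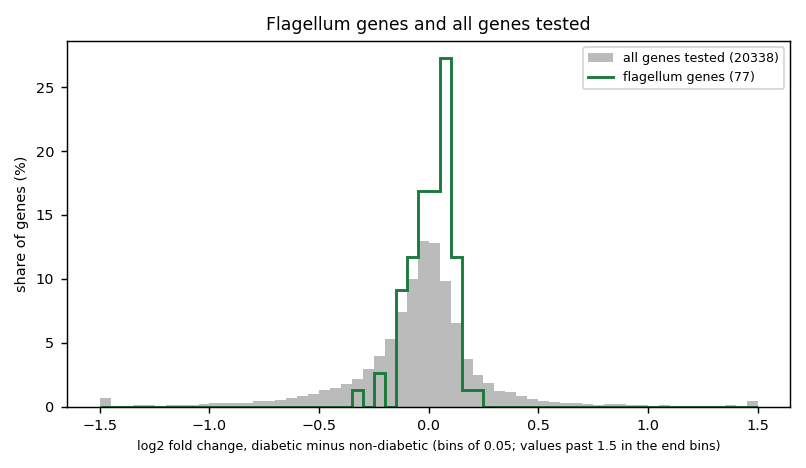
Share of genes (%) by log2 fold change of diabetic against non-diabetic rats, in bins of 0.05, for all 20338 genes tested (grey) and the 77 flagellum genes (green line). The flagellum genes lay between -0.31 and 0.22, and their middle 90% between -0.15 and 0.14. The middle 90% of all genes lay between -0.58 and 0.39. For genes averaging 10 FPKM or more, not drawn apart, it lay between -0.21 and 0.17.

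Without a threshold, the groups did not overlap for 3 flagellum genes. Ropn1 was at 316, 313 and 305 FPKM with diabetes and at 321, 336 and 324 FPKM without it. The Cfap46 gene ENSRNOG00000005953 was at 19.2, 19.3 and 18.4 FPKM with diabetes and at 20.6, 19.5 and 22.4 FPKM without it. These were the 2 genes of 77 with every diabetic rat below every non-diabetic rat, against 8.42% of all genes tested. Cfap20, an inner junction protein of the doublets, was at 43.7, 45.2 and 46.2 FPKM with diabetes and at 43.0, 43.3 and 43.3 FPKM without it. It was the single gene of 77 with all diabetic rats higher, against 4.56% of all genes. Both counts were no larger a share than that of all genes. The log2 fold changes were -0.072 (95% interval -0.19 to 0.044) for Ropn1, -0.13 (95% interval -0.31 to 0.040) for Cfap46 and 0.060 (95% interval -0.065 to 0.18) for Cfap20. The exact permutation test gives p = 0.1, two-sided, for any gene without overlap, the smallest that 3 against 3 rats allow. Its result for these genes was thus fixed by how they were chosen.

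The 8 Odf genes were grouped as outer dense fibres by symbol alone, and where each protein sits was not tested. Of them, 4 were higher and 4 lower by sign, with a median log2 fold change of 0.0077, or -0.0011 with spermatid-marker scaling. This scaling divides each rat by the geometric mean of 32 markers of round and elongating spermatids. A shift that flagellum genes share with those markers is removed by it and cannot be seen. With FPKM as deposited, the log2 fold change was -0.0088 (95% interval -0.23 to 0.21) for Odf1 and 0.067 (95% interval -0.057 to 0.19) for Odf2. The lowest p-value of the structure was that of Odf2 (adjusted p = 0.854, limma). Odf3l1, near the median level of all flagellum genes, was at 51.8, 40.8 and 47.2 FPKM with diabetes and at 51.4, 54.0 and 44.1 FPKM without it, and these ranges overlapped.

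The fibrous sheath had the lowest median, -0.059, with 6 of 7 genes lower by sign and Ropn1l higher. After median-ratio scaling 5 of 7 were lower, with Akap4 at 0.019. Cabyr was at 169, 146 and 157 FPKM with diabetes and at 167, 184 and 170.1 FPKM without it. Diabetic rat 1 lay above the lowest non-diabetic rat, and the log2 fold change was -0.14 (95% interval -0.32 to 0.027) with an adjusted p-value of 0.739 in limma. Without diabetic rat 1 the log2 fold change was -0.20, with a p-value below 0.05 in limma before adjustment and of 0.671 after it, and without diabetic rat 2 it was -0.092. Fsip2, a large protein needed to build the sheath, was at 61.0, 59.0 and 82.6 FPKM with diabetes and at 81.1, 74.9 and 77.4 FPKM without it. Diabetic rats 1 and 2 were low, and diabetic rat 3 was the highest of all 6, and the log2 fold change was -0.22 (95% interval -0.52 to 0.078). Without diabetic rat 3 the log2 fold change was -0.37, with a p-value below 0.05 in limma before adjustment and of 0.246 after it, and without diabetic rat 2 it was -0.13. The abundant genes were closer, with -0.010 (95% interval -0.15 to 0.13) for Akap4 and -0.059 (95% interval -0.18 to 0.063) for Akap3. Summed over the 7 genes, the sheath reached 2871 to 2901 FPKM in diabetic and 2889.9 to 2978 FPKM in non-diabetic rats, which overlapped.

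The tektins had a median log2 fold change of 0.055, with 4 of 5 genes higher by sign. Tekt3 was at 159.7, 148 and 148 FPKM with diabetes and at 144, 149 and 133 FPKM without it, and its log2 fold change was 0.10 (95% interval -0.056 to 0.25). Tekt1 was at 296, 260.0 and 291 FPKM with diabetes and at 283, 289 and 268 FPKM without it, with a log2 fold change of 0.010 (95% interval -0.15 to 0.17). The ranges of the groups overlapped for both.

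The outer dynein arm had the highest median, 0.083, and 5 of its 7 tested genes were higher by sign. Dnah8 differed by 0.12 (95% interval -0.047 to 0.29), with an adjusted p-value of 0.790, and Dnah17 by 0.14 (95% interval -0.10 to 0.38), with an adjusted p-value of 0.838. For Dnah17, diabetic rats 1 and 2 were the highest and diabetic rat 3 the lowest of all 6. Without diabetic rat 3 Dnah17 had a log2 fold change of 0.25 and the intermediate chain Dnai2 one of 0.20, both with a p-value below 0.05 before adjustment and of 0.463 and 0.605 after it. Dnah17 was at 0.075 without diabetic rat 2, and Dnai2 at 0.024 without diabetic rat 1.

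In the inner arm, 3 of 7 genes were higher by sign and the median was -0.0066, which became 5 of 7 and 0.023 after median-ratio scaling. Dnali1, a light intermediate chain, was at 58.4, 60.6 and 48.6 FPKM with diabetes and at 50.8, 48.7 and 47.0 FPKM without it. Diabetic rats 1 and 2 lay above the others and diabetic rat 3 among the non-diabetic rats, and the log2 fold change was 0.19 (95% interval -0.027 to 0.40). Without diabetic rat 3 the log2 fold change was 0.28, with a p-value below 0.05 in limma before adjustment and of 0.38035 after it, and without diabetic rat 2 it was 0.13. Dnah12 differed by -0.028 (95% interval -0.17 to 0.12).

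Among the radial spoke genes 3 of 6 were higher by sign, with a median of 0.0070, or -0.0018 with spermatid-marker scaling. Rsph9, a spoke head protein, was at 76.5, 64.8 and 64.3 FPKM with diabetes and at 68.4, 59.7 and 49.5 FPKM without it. Diabetic rat 1 was the highest and non-diabetic rat 3 the lowest, and the log2 fold change of 0.22 (95% interval -0.081 to 0.52) was the highest of the 77 genes. Without non-diabetic rat 1 it was 0.33, with a p-value below 0.05 in limma before adjustment and of 0.656 after it, and without non-diabetic rat 3 it was 0.095. Cfap206 was at 299.8, 354 and 315 FPKM with diabetes and at 346, 341 and 350.3 FPKM without it. Diabetic rats 1 and 3 lay below the others, and the log2 fold change was -0.10 (95% interval -0.27 to 0.062). Without diabetic rat 2 it was -0.17, with a p-value below 0.05 in limma before adjustment and of 0.839 after it, and without diabetic rat 1 it was -0.051. Rsph3, a spoke stalk protein, differed by -0.076 (95% interval -0.23 to 0.073).

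In the central apparatus 6 of 12 genes were higher by sign, and the median was -0.0027, which became 8 of 12 and 0.027 after median-ratio scaling. Spag6l was at 195, 185 and 180.1 FPKM with diabetes and at 178, 188 and 189 FPKM without it, with a log2 fold change of 0.014 (95% interval -0.12 to 0.15). Cfap74 was at 31.6, 31.6 and 33.3 FPKM with diabetes and at 27.0, 26.1 and 34.6 FPKM without it. Non-diabetic rat 3 was the highest of the 6 and the other non-diabetic rats the lowest, so that the log2 fold change of 0.15 (95% interval -0.11 to 0.41) became 0.28 without that rat, with a p-value below 0.05 in limma before adjustment and of 0.481 after it. It was 0.073 without non-diabetic rat 2. Cfap221 was at 11.2, 14.4 and 14.5 FPKM with diabetes and 13.9, 15.1 and 14.98 FPKM without it, with diabetic rat 1 well below the rest and a log2 fold change of -0.14 (95% interval -0.41 to 0.13), which was -0.019 without that rat.

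The 18 other Cfap genes had 14 higher and 4 lower by sign and a median of 0.044. Cfap36, the most abundant, was at 257, 263 and 309.9 FPKM with diabetes and at 258, 262 and 299.7 FPKM without it, where rat 3 was the highest in either group. Cfap53, which stabilises dynein arm docking, was at 44.4, 34.2 and 42.0 FPKM with diabetes and 35.2, 34.4 and 39.1 FPKM without it, with a log2 fold change of 0.14 (95% interval -0.11 to 0.40). Without diabetic rat 2 its log2 fold change was 0.25, with a p-value below 0.05 in limma before adjustment and of 0.799 after it, and without diabetic rat 1 it was 0.066. Cfap157 had overlapping values and a log2 fold change of -0.020 (95% interval -0.21 to 0.17). Cfap73, a less abundant member, was at 4.92, 5.46 and 4.34 FPKM with diabetes and 5.40, 5.61 and 5.89 FPKM without it, with a log2 fold change of -0.20 (95% interval -0.47 to 0.066). Its highest diabetic rat lay just above its lowest non-diabetic rat, and without diabetic rat 3 the value was -0.12.

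Cfap58 and Cfap58l1 gave nearly the same value in each rat. RefSeq lists Cfap58l1 as a synonym of Cfap58, so that both entries may stand for the same gene, although each was counted as a gene here. Cfap58 was at 29.8, 28.8 and 28.3 FPKM with diabetes and at 28.3, 24.5 and 26.1 FPKM without it. Cfap58l1 was at 28.8, 27.9 and 27.4 FPKM with diabetes and at 27.5, 23.7 and 25.4 FPKM without it. Their ratio was 1.03 to 1.04 in every rat. How reads common to both were counted is not given in the sources used here, so that the level of either is uncertain. Cfap58 differed by 0.14 (95% interval -0.028 to 0.31), with an adjusted p-value of 0.742. Without non-diabetic rat 1 its log2 fold change and that of Cfap58l1 were 0.19 each, with p-values below 0.05 before adjustment and of 0.675 and 0.688 after it. Without non-diabetic rat 2 they were 0.092 and 0.085. Cfap46 and Spag5 each label 2 genes of the table and were kept apart.

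The 7 other Spag genes tested had 5 higher and 2 lower by sign, with a median of 0.049. Spag4, a SUN-domain protein of the spermatid nuclear envelope, was at 64.6, 61.0 and 55.8 FPKM with diabetes and 59.1, 61.3 and 53.6 FPKM without it, with a log2 fold change of 0.060 (95% interval -0.13 to 0.25). Spag7 was at 16.6, 13.3 and 14.8 FPKM with diabetes and 17.0, 17.3 and 15.2 FPKM without it, with a log2 fold change of -0.15 (95% interval -0.39 to 0.10), and these ranges overlapped. Leaving out diabetic rat 1 gave -0.23 and leaving out diabetic rat 2 gave -0.066. Not every gene with the Spag name encodes a flagellar protein.

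**Figure D3:**
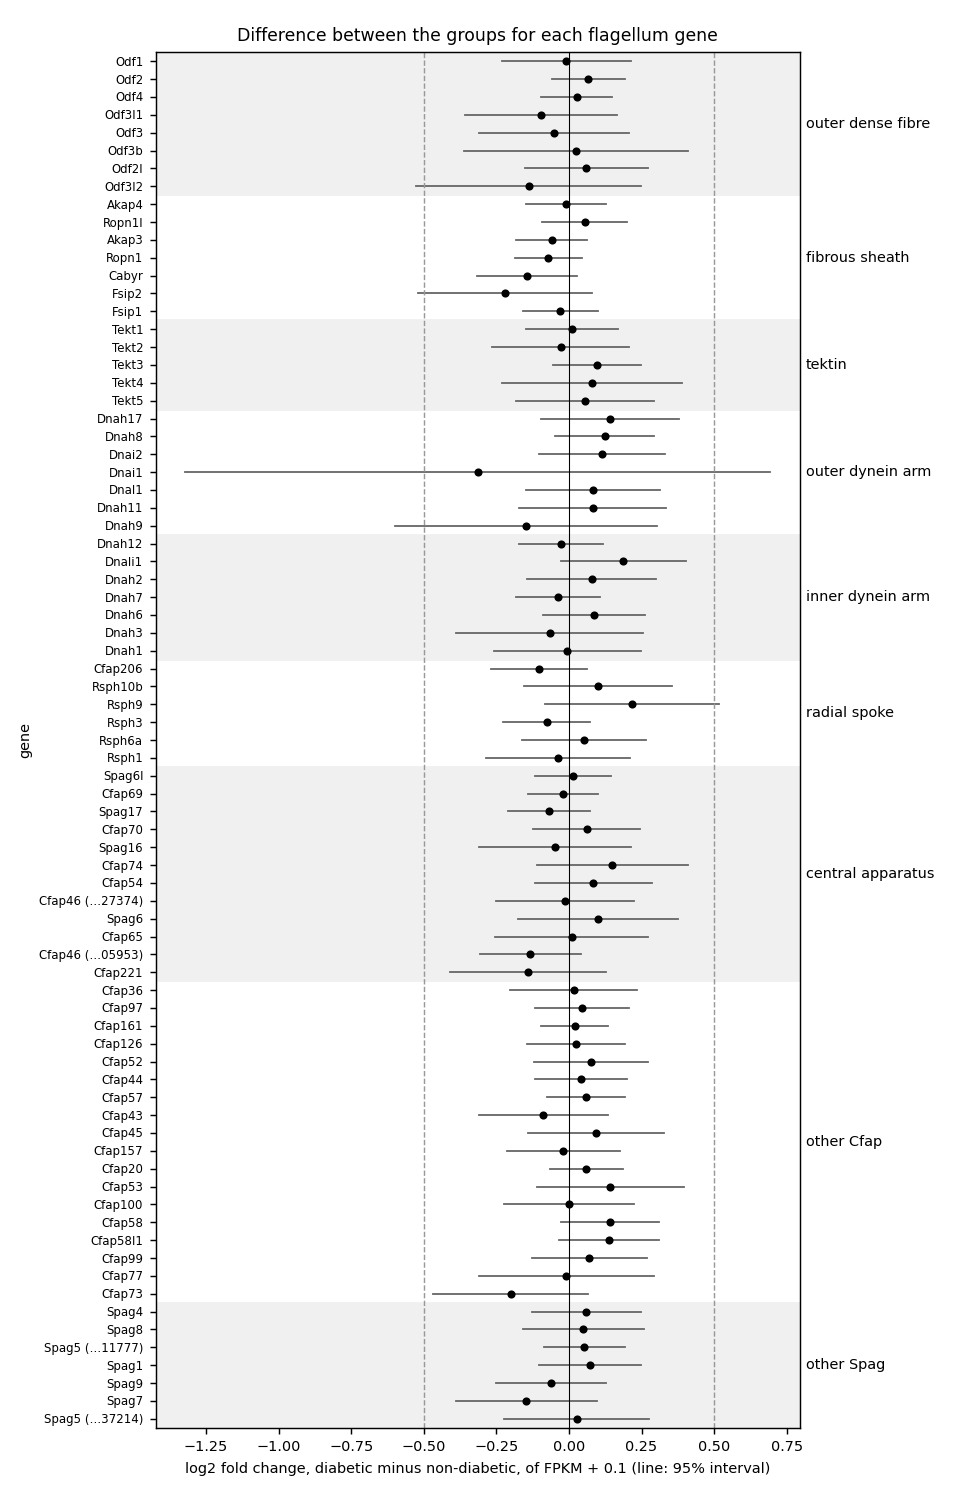
Log2 fold change of diabetic against non-diabetic rats on the scale of FPKM + 0.1 for the 77 flagellum genes tested, by structure (points), with 95% intervals from limma (lines). Every interval includes 0, and 72 lie within the dashed lines at -0.5 and 0.5.

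The spread between rats was small, and in 8 of the 9 structures their averages overlapped between the groups. This number was 7 after median-ratio scaling, where the other Spag genes did not overlap either (0.0016 to 0.050 with diabetes and -0.034 to -0.0083 without it), and 9 with spermatid-marker scaling or equal total FPKM. The median within-group SD of the log2 values was 0.117 for the flagellum genes, 0.176 for all genes tested and 0.104 for genes averaging 10 FPKM or more. Averaged over the 5 tektins, diabetic rat 1 lay 0.12 above the mean of the 6 rats on the log2 scale and non-diabetic rat 2 lay 0.099 above it, whereas non-diabetic rat 3 was at -0.18. The other rats lay between -0.041 and 0.015. The most deviating rats of the tektins were thus found in either group. For the outer dynein arm, diabetic rat 2 was at 0.15 and non-diabetic rat 1 at -0.10. The 3 lowest rats of this average were the 3 with low Dnai1, described next, which is 1 of the 7 genes averaged. In the fibrous sheath the 3 diabetic rats lay between -0.076 and 0.0040 and the 3 non-diabetic rats between 0.020 and 0.052, without overlap. They also did not overlap after median-ratio scaling (up to 0.015 against 0.017 and above). They did overlap with equal total FPKM and with spermatid-marker scaling (up to 0.021 against -0.023 and above). The latter removes any shift shared with spermatid markers. These averages were not tested.

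**Figure D4:**
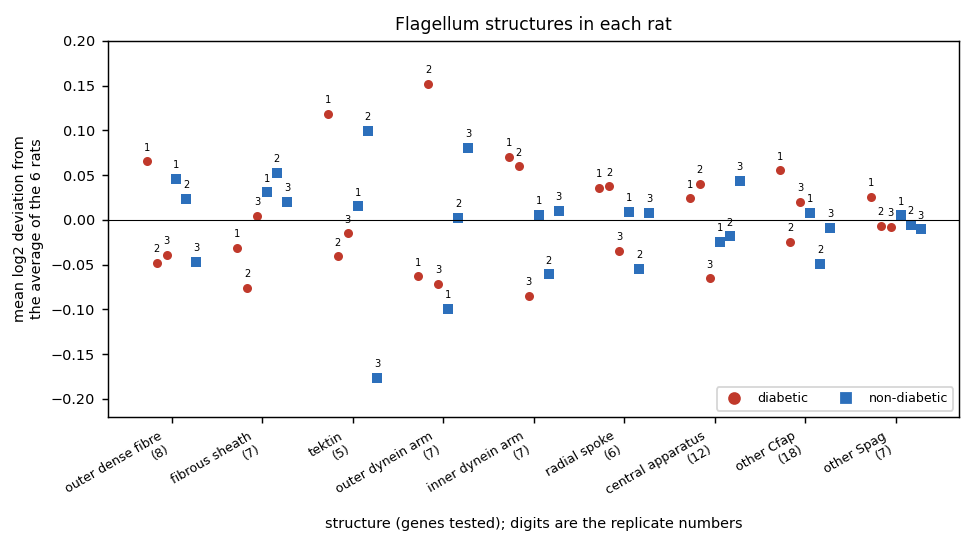
Mean log2 deviation from the average of the 6 rats over the tested genes of each structure, 1 point per rat with its replicate number, red circles diabetic and blue squares non-diabetic. The points ran from -0.18 (tektins, non-diabetic rat 3) to 0.15 (outer dynein arm, diabetic rat 2), and with FPKM as deposited the colours overlapped in every structure but the fibrous sheath, where the 3 diabetic rats lay lowest.

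Dnai1, an intermediate chain of the outer arm, stood apart from all other flagellum genes and was singled out after its values had been seen. It was at 25.2, 50.5 and 23.6 FPKM with diabetes and at 20.7, 53.1 and 52.6 FPKM without it. The 3 low rats, diabetic rats 1 and 3 and non-diabetic rat 1, lay between 20.7 and 25.2 FPKM, and the 3 high rats between 50.5 and 53.1 FPKM, with none between. This split crossed the groups, and the log2 fold change of -0.31 (95% interval -1.32 to 0.69) had an adjusted p-value of 0.925. Its within-group SD was 0.698 on the log2 scale, and the next largest of the 77 genes was 0.246 for Odf3b. The log2 fold change was -0.76 without non-diabetic rat 1, -0.66 without diabetic rat 2 and between -0.16 and -0.086 without any one of the other rats.

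The other outer arm chains did not show this split. Dnai2 was at 64.9, 57.2 and 50.7 FPKM with diabetes and at 51.7, 53.4 and 53.8 FPKM without it. Nor did 3 of the genes near Dnai1 in the RefSeq order, not all of them next to it. Fam219a lay between 19.2 and 22.6 FPKM, Kif24 between 9.003 and 11.2 FPKM and Dctn3 between 27.2 and 32.6 FPKM. The low and the high rats of Dnai1 were mixed in all 3. Transcripts of 1 gene were given as a single value in the table, and whether the split lay in some of them was not tested.

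**Figure D5:**
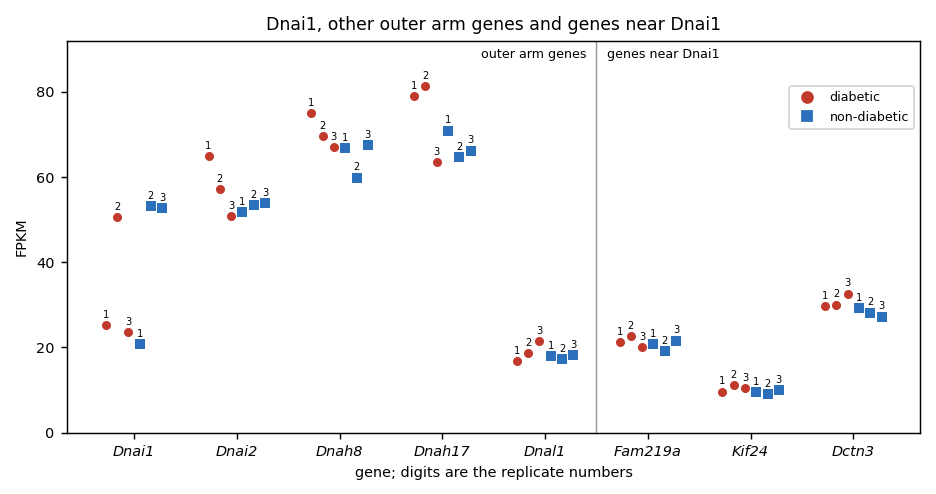
FPKM in each rat of Dnai1, the outer arm genes Dnai2, Dnah8, Dnah17 and Dnal1, and the genes Fam219a, Kif24 and Dctn3 near Dnai1, with replicate numbers, red circles diabetic and blue squares non-diabetic. Dnai1 alone fell into 3 rats between 20.7 and 25.2 FPKM and 3 between 50.5 and 53.1 FPKM, with both groups in either set.

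Other genes needed to build a flagellum were taken from 6 lists of known roles, none of them flagellum genes by the rule above. Of their 120 tested genes, 0 were lower at an unadjusted p-value below 0.05 in limma, against 4.99% of all genes tested, and 2 were higher, against 2.47%. After adjustment 0 were below 0.05, against 0.0344%. An interval within -0.5 and 0.5 was found for 115, against 50.9% of all genes tested and 90.7% of those averaging 10 FPKM or more. The listed genes were not matched by level. The median log2 fold change was 0.026. The gene with the lowest p-value was Lrrc23, a radial spoke protein, at 26.3, 26.9 and 27.5 FPKM with diabetes and at 21.2, 23.2 and 24.4 FPKM without it. The groups did not overlap, with diabetic rats higher, as in 4.56% of all genes tested. The log2 fold change was 0.23 (95% interval 0.062 to 0.40) with an adjusted p-value of 0.544. Iqcd, of the nexin-dynein regulatory complex that links neighbouring doublets, was at 50.8, 48.6 and 51.2 FPKM with diabetes and at 45.4, 46.8 and 44.3 FPKM without it. Its groups did not overlap either, and it differed by 0.14 (95% interval 0.012 to 0.27) with an adjusted p-value of 0.649.

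By list, 0 of 20 dynein arm assembly and docking factors passed an unadjusted p-value of 0.05, and Zmynd10, an assembly factor, came nearest with a log2 fold change of 0.11 (95% interval -0.020 to 0.25). The nexin-dynein regulatory complex and ruler had 1 of 13 higher (Iqcd), and the other axonemal proteins 1 of 34 (Lrrc23). None of 25 intraflagellar transport genes passed, with Ttc30b at -0.19 (95% interval -0.45 to 0.072). None of 16 genes of the head-tail coupling, annulus and manchette passed. Their most abundant gene, Oaz3, was at 3717, 3227 and 3618 FPKM with diabetes and at 3151, 3463 and 3286 FPKM without it, and Cetn1, a centrin of sperm, was at 313, 300.0 and 309 FPKM with diabetes and 284, 288 and 291 FPKM without it, where the groups did not overlap and the log2 fold change was 0.095 (95% interval -0.017 to 0.21). None of the 12 tested transcription factors of cilia and spermatids passed. Among them Fhl5, a coactivator of CREM, was at 290.0, 291 and 306 FPKM with diabetes and at 328, 319 and 310.1 FPKM without it, also without overlap. Fhl5 differed by -0.11 (95% interval -0.23 to 0.012) with an adjusted p-value of 0.712. The groups of Zmynd10 and Ttc30b did not overlap either. Of all genes tested, 8.42% did not overlap with diabetic rats lower and 4.56% with diabetic rats higher. How many of the listed genes did so was not counted.

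Markers of germ cells gave few calls, whereas most Leydig cell markers were called lower in diabetic rats before adjustment. None of 16 round spermatid and none of 16 elongating spermatid markers reached an unadjusted p-value of 0.05 in limma, with median log2 fold changes of -0.026 and -0.0018. Of 15 spermatocyte markers 1 was higher (median -0.0071), and of 10 spermatogonial markers 1 was lower and 1 higher (median -0.11). By contrast, 6 of 7 Leydig cell markers fell at that threshold, with a median of -1.24 and a summed level of 31.2 to 60.1 FPKM in diabetic against 87.3 to 121 FPKM in non-diabetic rats. Of 9 macrophage markers 4 fell (median -0.80), with sums of 32.2 to 38.3 against 42.3 to 48.8 FPKM. The most abundant of them, Mrc1, was not called and differed by -0.064. Of all genes tested, 4.99% were lower and 2.47% higher at the unadjusted threshold. After adjustment in limma, 1 Leydig cell marker was below 0.05 (Cyp17a1, adjusted p = 0.0415), and 0 macrophage markers were. The falls of the other Leydig cell and macrophage markers thus rest on unadjusted p-values. Without non-diabetic rat 3, 0 of all genes tested were below 0.05 after adjustment in limma, so that Cyp17a1 was not called there either. None of 12 Sertoli cell (median 0.058), 6 peritubular (-0.17), 4 endothelial (-0.19) and 2 tested epididymal markers (-0.086) passed. Of the epididymal markers Defb1 and Lcn8 were listed at 0 in all rats. The part of these cell types in the values of the flagellum genes was not tested.

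The libraries were alike in other respects. No value column was identical to another, and total FPKM was 453304 to 478211. The log2 values of the genes tested correlated between libraries with 0.958 to 0.965 within and 0.957 to 0.966 between groups. The number of reads is unknown, and relative depths estimated from the steps between low values were 0.966 to 1.09 in diabetic and 0.893 to 1.02 in non-diabetic rats.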

How the data were processed

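Testes of 6 Sprague-Dawley rats, 3 of them diabetic, had been analysed by RNA-Seq, with groups and replicate numbers taken from the sample labels. The authors screened reads with FastQC, compared them with rRNA by BWA, aligned with STAR, assembled transcripts with StringTie and deposited FPKM per gene. The genome build and tool versions are not given in the sources used here, and the labels do not settle which poly(A) fraction was sequenced. Values from the deposited FPKM were put on the scale of log2(FPKM + 0.1), genes averaging 0.5 FPKM or more were kept, and groups were compared with limma 3.58.1 in R 4.3.3 (lmFit and eBayes with trend, two-sided, Benjamini-Hochberg over all 20338 genes), without a block for replicate numbers. Exact permutation tests used scipy 1.17.1 in Python 3.11.15. The fit was tested on simulated data with planted changes of 1 or more on the log2 scale. Recovery of smaller changes, such as those of the flagellum genes, was not tested. Flagellum genes, roles, pathway and marker lists were chosen with earlier results of these data known. Genes named are those of the highest level and the lowest p in each structure, the 10 lowest p in each direction and those nearest the median level, and of each pathway list the lowest 2 p-values and the highest level; others were chosen after their values were seen. Not all of the genes so named in the lists are printed. Promoters came from RefSeq (GRCr8), and no coordinates of the authors' build were used. The 18 alternatives were another pseudocount, filter, scaling, variance model, replicate block or gene set, and leaving out each rat.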

Additional observations from a re-analysis of the deposited data

How the results depend on the processing

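Under all 18 alternatives 0 flagellum genes changed by 1 or more on the log2 scale with an unadjusted p-value under 0.05, and 0 had an adjusted p-value below 0.05 in limma, where the lowest was 0.246 (Fsip2 without diabetic replicate 3). The number with an interval within -0.5 and 0.5 was 69 to 74, and the median log2 fold change of the flagellum genes 0.0020 to 0.053. Toward lower values, 1 flagellum gene (Cabyr) passed an unadjusted p-value of 0.05 with spermatid-marker scaling, and 0 to 1 when a rat was left out. Toward higher values, 1 (Dnali1) passed with median-ratio scaling, 2 (Rsph9 and Dnali1) with the replicate block, and 0 to 3 when a rat was left out. The rats were different animals, and no source says that a replicate number marks a shared litter, batch or day, so the numbers were not used as pairs. The deviations of same-numbered rats had correlations of 0.106, 0.0153 and 0.0979. That 4 of 6 rats correlated best with their own number is a hint from the data, not the design. Of all genes, the criterion of fold and p-value was passed by 253, by 621 without a filter, by 85 among protein-coding genes only, by 91 with a pseudocount of 1, and by 246 to 335 when a rat was left out. The number with an adjusted p-value below 0.05 was 7, and it was 12 without the trend, 3 without a filter, 36 among protein-coding genes only, 4 with the replicate block, 15 with rows of the same symbol summed, 17 with spermatid-marker scaling and 0 to 14 when a rat was left out, with 0 without non-diabetic replicate 3. The cause of these shifts was not tested. Of the 31 genes followed singly, the sign turned under median-ratio scaling for Akap4 (0.019), Dnah12 (0.0018), Cfap157 (0.0093) and Odf1 (0.021). When a rat was left out it turned for Spag6l (-0.018 to 0.040), Akap4 (-0.041 to 0.029), Dnah12 (-0.065 to 0.0020), Cfap36 (-0.068 to 0.084), Cfap157 (-0.095 to 0.022), Odf1 (-0.10 to 0.060) and Tekt1 (-0.026 to 0.068). The depth in reads is unknown, and precision rests on 3 rats a group.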
